A study of Homo sapiens with 12 samples.

Results

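The genes of intraflagellar transport, dynein-2 and the BBSome were followed in the U87 line, grown from a human glioblastoma, at 72 h of 3α-THP (allopregnanolone, 10 nM), F (finasteride, 100 nM), P4 (progesterone, 10 nM) or V (vehicle, DMSO). F inhibits the enzyme that reduces P4 on the way to 3α-THP. The members are 35 genes listed by name, taken from 18418 genes that have at least 1 transcript cluster of their own on the Human Gene 1.0 ST array. A transcript cluster is a set of probes placed along 1 gene, and its value is a log2 expression level. Each gene is given by its brightest cluster, and DYNC2H1, the only member with more than 1, by both, so that 36 clusters were read. There were 3 arrays per treatment from cultures labelled as biological replicates with the numbers 1 to 3, which makes 12 arrays, and the V arrays are the control of all 3 steroids. The vehicle is labelled as 0.1% DMSO in the sample descriptions and as 10% in the treatment protocol, and the methods of the study give 0.1%. All cultures, V included, had been moved to medium without phenol red and with charcoal-stripped serum before treatment. All come from 1 cell line, and cilia themselves were not measured.

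Cilia are built by intraflagellar transport, in which protein trains carry cargo along the microtubules of the axoneme. Kinesin-2 moves the trains toward the tip with the IFT-B complex, and dynein-2 returns them to the base with the IFT-A complex. The BBSome rides on the trains and takes membrane proteins, such as signalling receptors, out of the cilium. MNS1 is a coiled-coil protein of sperm flagella and motile cilia, and MKKS is a chaperonin-like protein needed for BBSome assembly. By these roles the members fall into 16 IFT-B genes, 6 IFT-A genes, 4 dynein-2 genes, 7 BBSome genes, MKKS and MNS1. The annotation now names TTC26 as IFT56, TTC30A and TTC30B as IFT70A and IFT70B, WDR34 as DYNC2I2 and WDR60 as DYNC2I1, and the older names are used here.

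The arrays had been brought to 1 scale, with medians of 6.35 to 6.40 over the 21214 tested clusters. Levels of different genes were not tested against each other, because probes differ in brightness, and no detection calls were used. For the same reason the marker levels that follow are a rough description only. Of 10 markers of glioma or astroglia, VIM and CD44 were at 11.7 to 12.6 over all arrays and SLC1A3 at 9.08 to 9.70, while AQP4 was at 2.74 to 3.25, S100B at 3.57 to 3.98 and SOX2 at 3.88 to 4.26. The 4 measured neuronal markers ran from 3.76 (STMN2) to 8.89 (SNAP25), the 4 of leukocytes from 2.84 (PTPRC) to 6.93 (CSF1R), the 5 of endothelium from 3.79 to 5.66 and the 5 of epithelium from 3.42 (EPCAM) to 7.61 (KRT8). None of these 28 markers passed the threshold in any of the 4 comparisons, where at most 0.627% of all tested clusters rose and 0.0519% fell. A gene passed when it had a fold over 1.5, which is 0.585 on the log2 scale, and an unadjusted p under 0.05. These limits are those of the study, whose reported calls came from an analysis of variance, and are applied here to limma. An adjusted p is one after Benjamini-Hochberg adjustment over all 21214 clusters, and SE is limma's standard error.

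The promoters of MNS1, DYNC2H1 and the IFT-B genes IFT74, IFT81 and IFT80, which had the next highest log2 fold changes with 3α-THP, are shown. That of IFT122 is shown too, as the only one with a full X-box of the form searched here. Ciliary genes are known targets of RFX transcription factors, which bind the X-box. The study searched promoters of its chosen genes for sites of factors that include CREB, which binds the cAMP response element. CCAAT is a common promoter element. RefSeq windows of 300 bases, 250 before and 50 after a transcript start, were matched for 32 of the 35 members (38 windows, build GRCh38.p14). Capitals mark any of these letters on either strand: the X-box, its arm GTTGCC, the cAMP response element TGACGTCA or its core TGACG, and CCAAT. The arm and the core can lie within the full sites, and GTTGCC was added after the sequences had been seen.
MNS1 (chr15:56465088-56465387, minus strand): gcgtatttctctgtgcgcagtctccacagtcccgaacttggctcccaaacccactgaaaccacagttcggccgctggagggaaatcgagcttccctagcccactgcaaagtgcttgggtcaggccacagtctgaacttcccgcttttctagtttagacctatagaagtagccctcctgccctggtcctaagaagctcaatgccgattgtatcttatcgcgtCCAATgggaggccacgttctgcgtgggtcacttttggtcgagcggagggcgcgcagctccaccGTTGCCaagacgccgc
DYNC2H1 (chr11:103109176-103109475, plus strand): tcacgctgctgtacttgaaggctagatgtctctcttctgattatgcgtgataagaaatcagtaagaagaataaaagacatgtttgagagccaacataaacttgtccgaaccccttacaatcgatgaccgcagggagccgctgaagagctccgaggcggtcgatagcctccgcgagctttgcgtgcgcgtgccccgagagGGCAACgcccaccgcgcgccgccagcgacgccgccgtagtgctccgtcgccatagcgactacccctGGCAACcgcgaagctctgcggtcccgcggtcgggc
IFT74 (chr9:26946860-26947159, plus strand): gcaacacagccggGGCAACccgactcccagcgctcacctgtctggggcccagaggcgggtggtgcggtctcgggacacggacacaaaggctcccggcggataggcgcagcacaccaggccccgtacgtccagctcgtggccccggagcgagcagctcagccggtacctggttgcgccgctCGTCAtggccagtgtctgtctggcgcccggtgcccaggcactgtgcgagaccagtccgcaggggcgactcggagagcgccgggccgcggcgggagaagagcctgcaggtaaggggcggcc
IFT81 (chr12:110124107-110124406, plus strand): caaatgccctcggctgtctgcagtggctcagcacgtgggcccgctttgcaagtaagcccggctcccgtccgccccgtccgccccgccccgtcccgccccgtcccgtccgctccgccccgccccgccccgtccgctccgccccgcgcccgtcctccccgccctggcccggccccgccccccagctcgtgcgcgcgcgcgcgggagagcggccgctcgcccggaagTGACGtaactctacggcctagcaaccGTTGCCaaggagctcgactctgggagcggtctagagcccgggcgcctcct
IFT80 (chr3:160399176-160399475, minus strand): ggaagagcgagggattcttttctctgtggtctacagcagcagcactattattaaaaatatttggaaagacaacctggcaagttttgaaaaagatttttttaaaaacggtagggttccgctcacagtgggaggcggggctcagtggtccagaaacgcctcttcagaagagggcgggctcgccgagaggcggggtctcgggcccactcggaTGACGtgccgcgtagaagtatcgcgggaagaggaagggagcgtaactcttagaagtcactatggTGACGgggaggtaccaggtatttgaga
IFT122 (chr3:129439974-129440273, plus strand): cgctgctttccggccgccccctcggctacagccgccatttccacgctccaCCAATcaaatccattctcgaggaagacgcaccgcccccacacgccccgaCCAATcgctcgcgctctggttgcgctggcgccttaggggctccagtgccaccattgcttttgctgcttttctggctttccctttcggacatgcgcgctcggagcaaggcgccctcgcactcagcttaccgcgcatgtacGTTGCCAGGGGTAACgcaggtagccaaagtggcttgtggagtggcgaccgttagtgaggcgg
The arm GTTGCC stood once in the MNS1 and IFT81 windows and 2 times in that of DYNC2H1. It was in 2 of the 3 windows of IFT74, of which the first is shown, and not in that of IFT80. It was found in 16 of the 38 member windows (42.1%) and in 12.2% of all 35116 windows. A full X-box of the searched form stood in a single member window (2.63%) and in 0.134% of all windows. That member was IFT122, an IFT-A gene whose level did not pass in any comparison. The full cAMP response element was in 5 member windows (13.2%, with 1.85% of all), those of BBS7, IFT20, IFT27, IFT43 and IFT57, and in none of MNS1, DYNC2H1, IFT74, IFT81 or IFT80. TGACG was in 44.7% of member windows and 24.6% of all, and CCAAT in 44.7% and 34.6%. These are matches of letters and do not show binding.

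With 3α-THP, MNS1 and the dynein-2 motor gene DYNC2H1 rose, and the other 33 members did not pass the threshold (n = 3 arrays per treatment). MNS1 had 6.40, 7.25 and 7.04 with 3α-THP, against 5.23, 6.36 and 5.66 with V, on the log2 scale in order of replicate number. The lowest 3α-THP array lay just above the highest V array, and within each replicate number MNS1 was higher with 3α-THP, by 1.18, 0.89 and 1.38. The log2 fold change was 1.15 (SE 0.268, limma, adjusted p = 0.381), a 2.22-fold rise. DYNC2H1, the heavy chain that gives dynein-2 its motor activity, had 6.71, 6.63 and 6.80 with 3α-THP and 5.99, 6.14 and 5.89 with V in its brighter cluster. Its arrays did not overlap, and its log2 fold change was 0.71 (SE 0.158, limma, adjusted p = 0.376), or 1.64-fold. These 2 are 5.71% of the 35 members, beside 0.627% of all tested clusters that rose and 0.0519% that fell. As RNA was taken in bulk, more cells that express a gene and more RNA per cell cannot be told apart. DYNC2H1 had been chosen by the study for RT-qPCR from these same arrays, so its rise on them is not independent evidence. The study reports that its RT-qPCR of this gene matched the arrays, and that P4 given together with F also raised it. No member had an adjusted p under 0.05 in limma, beside 0.00471% of all clusters. Both passed the threshold without any 1 of the 12 arrays, with log2 fold changes of 0.89 to 1.45 for MNS1 and 0.65 to 0.78 for DYNC2H1.

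The second cluster of DYNC2H1 had the larger standard error. Its levels were 5.69, 5.72 and 6.01 with 3α-THP, 5.79, 5.31 and 5.72 with F, 5.01, 5.15 and 5.89 with P4 and 5.32, 5.62 and 4.90 with V. The 3α-THP arrays lay above the V arrays, while those of F and P4 overlapped them. Its log2 fold changes were 0.53 (SE 0.227) with 3α-THP, 0.33 with F and 0.07 with P4, none of which passed the threshold. With 3α-THP it passed with array weights (0.81) and without V replicate 2 (0.70), 3α-THP replicate 1 (0.59) or all arrays of number 2 (0.74), and with F without the arrays of number 2 (0.64). Without V replicate 3 it was 0.34 with 3α-THP and 0.14 with F, and with F it was 0.50 without V replicate 2. With the mean of both clusters, DYNC2H1 had 0.62 (SE 0.183) with 3α-THP, which passed, and 0.47 (SE 0.183) with F, which did not.

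**Figure D1:**
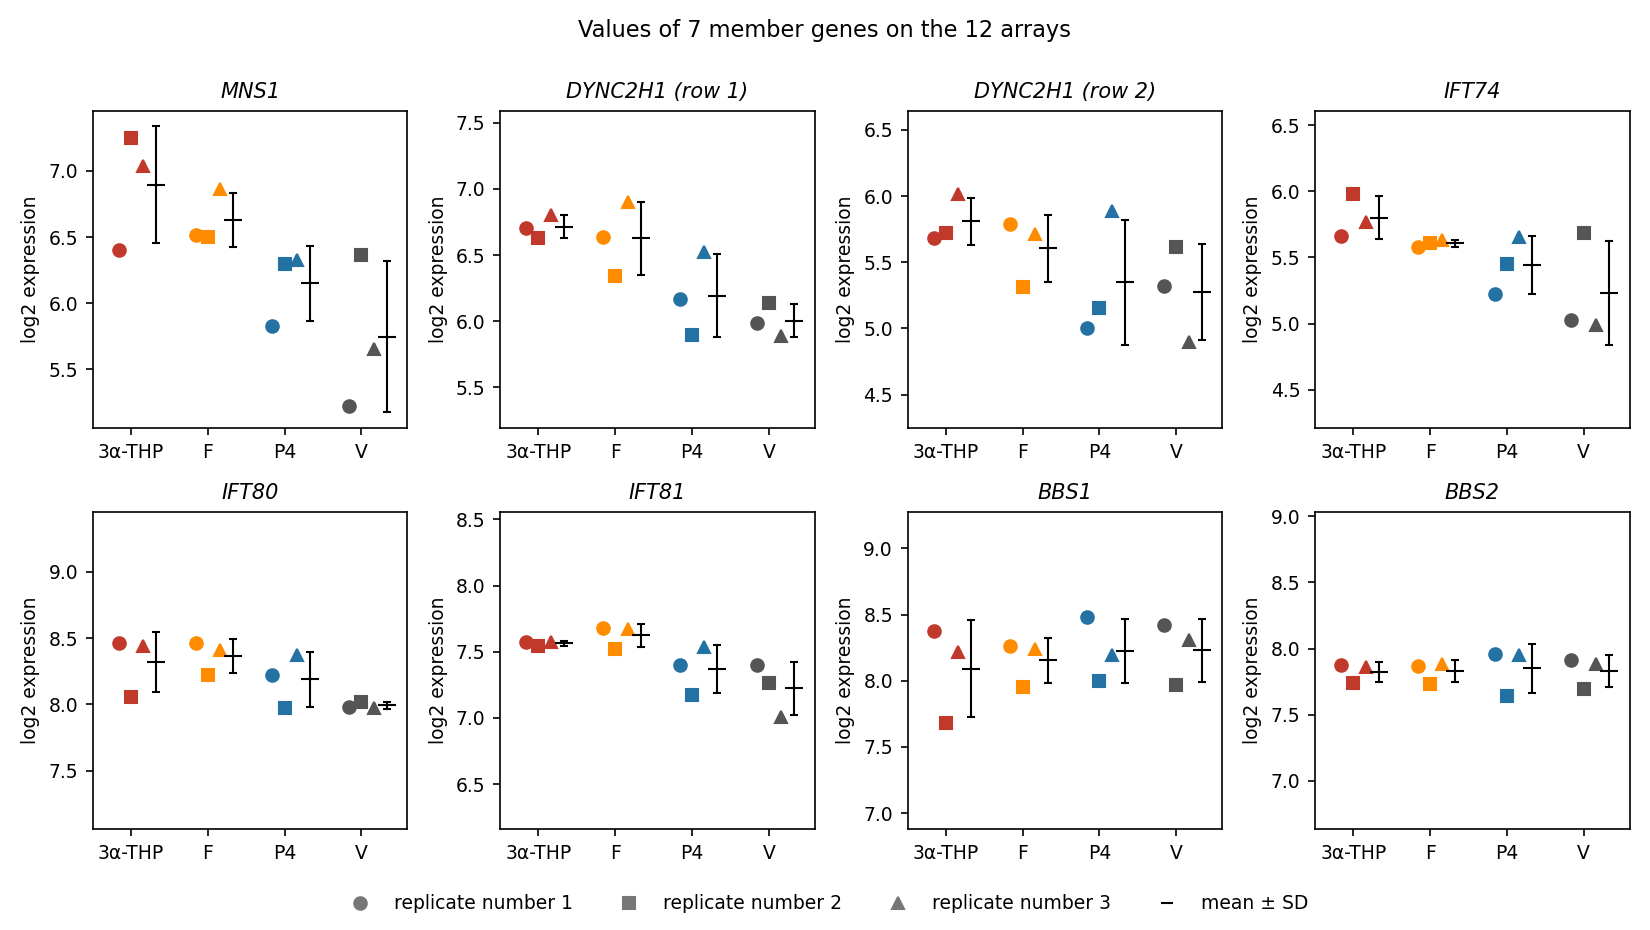
log2 expression (vertical axes, spans differ between genes) of 7 member genes, DYNC2H1 with both clusters (rows 1 and 2), on each of 12 arrays, by treatment, with symbols for the replicate number and the mean ± SD of 3 arrays. MNS1 and the first cluster of DYNC2H1 lie higher with 3α-THP and F than with V without overlap, and BBS1 and BBS2 lie lowest on the arrays with number 2 in each treatment.

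Among the 16 IFT-B genes no member passed the threshold with 3α-THP, beside 0.627% of all tested clusters that rose and 0.0519% that fell. The members differed in direction. IFT74 and IFT81, which bind each other and form the tubulin-binding part of the complex, and IFT80, a peripheral subunit, had the 3 highest log2 fold changes. IFT74 had 5.66, 5.98 and 5.77 with 3α-THP, against 5.03, 5.68 and 4.99 with V, so that 1 V array overlapped, and its log2 fold change was 0.57 (SE 0.167, unadjusted p = 0.00491 and adjusted p = 0.474 in limma). That is 1.48-fold, just under the threshold, which it passed with array weights (0.70) and without V replicate 2 (0.79), 3α-THP replicate 1 (0.64), 3α-THP replicate 3 (0.59) or all arrays of number 2 (0.71). IFT81 had 7.57, 7.54 and 7.57 with 3α-THP and 7.40, 7.26 and 7.01 with V, with no overlap and a narrow range with the steroid (log2 fold change 0.34, SE 0.113). IFT80 had 8.46, 8.06 and 8.44 with 3α-THP and 7.98, 8.02 and 7.97 with V, where the array with number 2 was hardly above V (log2 fold change 0.33, SE 0.126). IFT22, a small GTPase of the complex, had 8.62, 8.56 and 8.51 with 3α-THP and 8.71, 8.75 and 8.70 with V. It lay below V on all arrays, but by a log2 fold change of only -0.16 (SE 0.0723). The other IFT-B genes ran between log2 fold changes of -0.17 (IFT52) and 0.23 (IFT88), and 9 of all 16 were negative. TTC30A and TTC30B are near copies of each other, so that their probes may share signal.

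In the IFT-A complex and among the other dynein-2 genes, no member passed with 3α-THP (beside 0.627% of all clusters higher and 0.0519% lower). TTC21B, an IFT-A subunit, had 6.75, 6.71 and 6.81 with 3α-THP, against 6.51, 6.54 and 6.55 with V. This was without overlap but small, with a log2 fold change of 0.22 (SE 0.0938, unadjusted p = 0.033 in limma). The core subunit genes WDR19 and IFT140 had log2 fold changes of 0.21 and -0.14, so that values within the complex lay on both sides of 0. In dynein-2 the light intermediate chain gene DYNC2LI1 was at 0.20 (SE 0.16) on the log2 scale of fold changes, and the intermediate chain genes WDR60 and WDR34 had log2 fold changes of 0.09 and -0.08, beside the 0.71 of the heavy chain.

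Over all members the median log2 fold change with 3α-THP was 0.00, with 18 positive and 17 negative, beside a median of -0.03 and 41.1% positive over all tested clusters. An unadjusted p under 0.05 in limma with a higher level was reached by 6 members (17.1%, beside 3.25% of all clusters), namely MNS1, DYNC2H1, IFT74, IFT80, IFT81 and TTC21B, and with a lower level by 1 (2.86%, beside 4.09%), IFT22. The 3α-THP arrays lay above V without overlap in 6 members (17.1%, beside 4.01% of all clusters), and below it in 1 (2.86%, beside 7.28%). With the replicate number as a block, 7 members were higher at an unadjusted p under 0.05 (20%, beside 5.49%), with IFT88 added, and 1 lower (2.86%, beside 7.91%).

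With F, MNS1 and DYNC2H1 rose past the threshold, and no member fell past it (n = 3 arrays per treatment). MNS1 had 6.52, 6.50 and 6.87 with F, against 5.23, 6.36 and 5.66 with V, a log2 fold change of 0.88 (SE 0.268, limma, adjusted p = 0.911). Its difference within the replicate numbers was uneven, at 1.29, 0.14 and 1.21, the smallest being that of number 2, whose V array was the highest of the V arrays. DYNC2H1 had 6.64, 6.35 and 6.90 with F and 5.99, 6.14 and 5.89 with V, a log2 fold change of 0.62 (SE 0.158, limma, adjusted p = 0.833) without overlap. Within the replicate numbers it was higher by 0.65, 0.21 and 1.01, again least with number 2. The 2 are 5.71% of the members, beside 0.382% of all tested clusters that rose and 0.0141% that fell, and none had an adjusted p under 0.05 in limma, beside 0.00471%. The call of DYNC2H1 was lost without V replicate 3 (0.56) or F replicate 3 (0.49), while that of MNS1 held without any 1 array (0.62 to 1.19).

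Among the members that did not pass with F, IFT81 and IFT80 had the smallest p. IFT81 had 7.68, 7.52 and 7.67 with F, against 7.40, 7.26 and 7.01 with V (log2 fold change 0.40, SE 0.113, unadjusted p = 0.00375 in limma). IFT80 had 8.47, 8.22 and 8.41 with F, against 7.98, 8.02 and 7.97 with V (log2 fold change 0.37, SE 0.126, unadjusted p = 0.0111 in limma). Both were above V on all arrays without passing the fold. IFT74 had 5.58, 5.61 and 5.63 with F, against 5.03, 5.68 and 4.99 with V, a log2 fold change of 0.38 (SE 0.167). It was nearly level across the F arrays and overlapped V, and it passed the threshold without V replicate 2 or without all arrays of number 2. The IFT-A gene TTC21B had a log2 fold change of 0.20 and the BBSome gene BBS9 one of 0.19. Over all members the median log2 fold change with F was 0.08, with 22 positive (62.9%, beside 41.8% of all tested clusters, whose median was -0.02). An unadjusted p under 0.05 in limma with a higher level was reached by 5 members (14.3%, beside 2.58%) and with a lower level by 0 (beside 2.11%). With the replicate number as a block 7 were higher (20%, beside 4.38%), with TTC21B and BBS9 added, and 0 lower (beside 4.16%). The F arrays lay above V without overlap in 7 members (20%, beside 3.6%), namely MNS1, DYNC2H1, IFT80, IFT81, TTC21B, the IFT-A gene WDR35 and the BBSome gene TTC8, and below it in 2 (5.71%, beside 5.51%), IFT22 and IFT52. The doses of F and 3α-THP differed, and both are compared with the same V arrays, so that their values stand side by side here and were not tested against each other.

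With P4, no member passed the threshold and none had an unadjusted p under 0.05 in limma, beside 0.0141% of all tested clusters that rose at the threshold and 0.00943% that fell (n = 3 arrays per treatment). At the unadjusted p alone, 0.914% of all clusters were higher and 0.905% lower, and the unmoderated analysis of variance of the methods also called 0 members. With the replicate number as a block MNS1 had an unadjusted p of 0.0354 in limma, the only member under 0.05 (2.86%, beside 1.82% of all clusters that were higher), and 0 were lower (beside 1.98%). MNS1 had 5.83, 6.30 and 6.33 with P4, against 5.23, 6.36 and 5.66 with V, which overlap. Its log2 fold change was 0.40, with a 95% interval of -0.18 to 0.98 that reaches past a 1.5-fold rise, and it passed without V replicate 2 (0.71) or without all arrays of number 2 (0.64), while without V replicate 1 it was 0.14. DYNC2H1 had 6.17, 5.89 and 6.52 with P4 and 5.99, 6.14 and 5.89 with V, so that 2 P4 arrays lay above all V arrays and the array of number 2 at the level of the lowest. Its log2 fold change was 0.19 (95% interval -0.16 to 0.53), with 0.024 without P4 replicate 3 and 0.34 without P4 replicate 2. In the other 34 members than MNS1 the interval stayed inside a 1.5-fold change either way. TTC30A, an IFT-B subunit, had 6.36, 6.51 and 6.33 with P4, against 6.15, 6.32 and 6.24 with V. It was the only member above V on all P4 arrays (2.86%, beside 1.96% of all clusters), by a log2 fold change of 0.17 (SE 0.0912). IFT27, a small GTPase of IFT-B that takes part in BBSome exit from the cilium, had 6.92, 7.01 and 6.98 with P4, against 7.17, 7.07 and 7.04 with V. It and CLUAP1 lay below V without overlap (5.71% of the members, beside 3.47%), IFT27 by a log2 fold change of -0.13 (SE 0.0825). IFT80 had 8.22, 7.97 and 8.38 with P4, against 7.98, 8.02 and 7.97 with V, which overlap (log2 fold change 0.20, SE 0.126). IFT81 had 7.40, 7.17 and 7.53 with P4, against 7.40, 7.26 and 7.01 with V (log2 fold change 0.15, SE 0.113), and IFT74 had a log2 fold change of 0.21 (SE 0.167). The median over the members was 0.02, beside -0.01 over all tested clusters, and 22 were positive (62.9%, beside 43.9%).

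**Figure D2:**
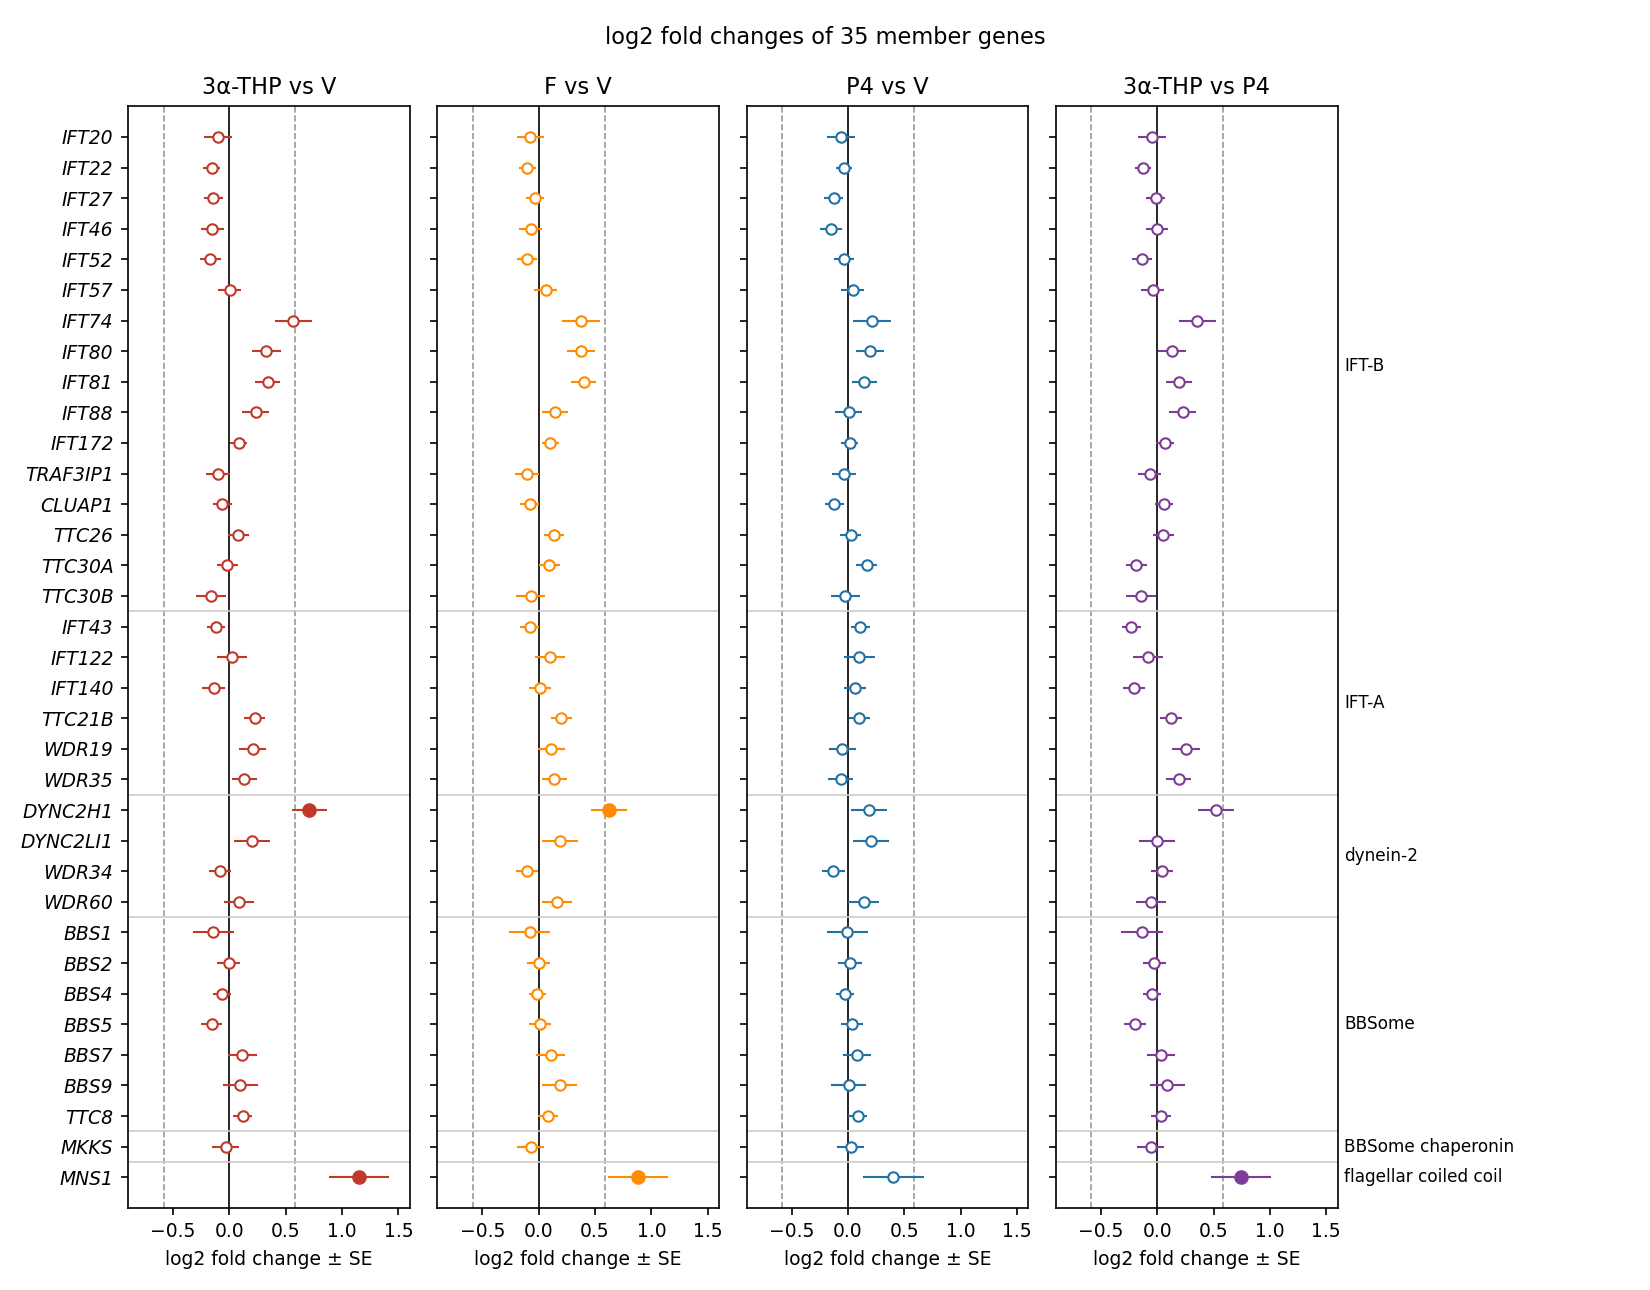
log2 fold changes ± SE (horizontal axes) of the brightest cluster of each of 35 members (rows, grouped by complex) in 4 comparisons. Filled points passed a fold over 1.5 (dashed lines) with an unadjusted p under 0.05, which holds for MNS1 and DYNC2H1 with 3α-THP and F and for MNS1 with 3α-THP against P4.

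3α-THP and P4 were both given at 10 nM for 72 h, so this 1 pair of related compounds was compared directly. 3α-THP is made from P4 in the body by reduction of the ring A double bond and of the ketone on that ring, which leaves a hydroxyl group. MNS1 was higher with 3α-THP, at 6.40, 7.25 and 7.04, against 5.83, 6.30 and 6.33 with P4, without overlap (log2 fold change 0.75, SE 0.268, limma, adjusted p = 0.999). It was higher in each replicate number, by 0.58, 0.95 and 0.71. MNS1 alone passed (2.86% of the members), beside 0.222% of all tested clusters that were higher and 0.0283% that were lower. The call was lost without 3α-THP replicate 2 (0.57), 3α-THP replicate 3 (0.67) or P4 replicate 1 (0.58), and with the unmoderated analysis of variance of the methods.

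The brighter cluster of DYNC2H1 had 6.71, 6.63 and 6.80 with 3α-THP, against 6.17, 5.89 and 6.52 with P4. The arrays did not overlap, but the log2 fold change of 0.52 (95% interval 0.18 to 0.86, unadjusted p = 0.00597 in limma) was under the threshold of fold, which it passed without P4 replicate 3 (0.69). IFT43, a small IFT-A subunit, was lower with 3α-THP at an unadjusted p under 0.05, with 7.31, 7.19 and 7.17 with 3α-THP, against 7.57, 7.34 and 7.46 with P4. It lay lower in all 3 replicate numbers, by a log2 fold change of -0.23 (SE 0.0825, unadjusted p = 0.016 in limma). IFT74 had 5.66, 5.98 and 5.77 with 3α-THP, against 5.22, 5.45 and 5.66 with P4, a log2 fold change of 0.36 (SE 0.167) with the arrays just apart. In 32 of the 35 members the 95% interval of the difference stayed inside a 1.5-fold change either way, and the other 3 are MNS1, DYNC2H1 and IFT74. The 3α-THP arrays lay above those of P4 without overlap in 4 members (11.4%, beside 3.13% of all clusters), namely MNS1, DYNC2H1, IFT74 and IFT81, and below them in 3 (8.57%, beside 5.09%), namely IFT43, IFT140 and TTC30A. The median was 0.00 over the members, with 16 positive (45.7%, beside 44.8%), and -0.01 over all tested clusters. An unadjusted p under 0.05 in limma was reached by 2 members with a higher level (5.71%, beside 1.82% of all clusters) and by 1 with a lower one (2.86%, beside 2.14%). With the replicate number as a block these were 5 (14.3%, beside 4.2%), with IFT74, IFT88 and WDR19 added, and 3 (8.57%, beside 4.8%), with IFT140 and BBS5 added.

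The BBSome genes did not pass with any steroid. None of the 7 passed in any of the 4 comparisons. Of all tested clusters, 0.627% rose past the threshold with 3α-THP, 0.382% with F, 0.0141% with P4 and 0.222% with 3α-THP against P4. In the same order, 0.0519%, 0.0141%, 0.00943% and 0.0283% fell, so a count of 0 in 7 genes lies near these shares. The log2 fold changes of the 7 ran from -0.16 (BBS5) to 0.12 (TTC8) with 3α-THP. They ran from -0.08 (BBS1) to 0.19 (BBS9) with F and from -0.02 to 0.09 with P4. The 95% intervals of all 7 lay inside a 1.5-fold change either way in every comparison, reaching -0.54 and 0.43 with 3α-THP, -0.47 and 0.52 with F and -0.40 and 0.39 with P4. MKKS had log2 fold changes of -0.03, -0.07 and 0.02 with 3α-THP, F and P4.

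Several BBSome genes differed between the replicate numbers. BBS1 had 8.38, 7.68 and 8.21 with 3α-THP, 8.26, 7.95 and 8.24 with F, 8.48, 8.00 and 8.20 with P4 and 8.42, 7.96 and 8.31 with V. The array with number 2 was the lowest in each treatment, and the means over treatments were 8.38, 7.90 and 8.24 for the numbers 1, 2 and 3. BBS2 and BBS9 were also lowest with number 2, with means of 7.90, 7.70 and 7.90 and of 7.26, 6.96 and 7.36. The replicate number held 83.5% of the spread of BBS1 over the arrays, 86.8% of that of BBS2 and 75.8% of that of BBS9, and the treatment 6.75%, 0.949% and 15.4%. IFT122 and WDR60 were also lowest with number 2 in all 4 treatments (replicate number 79.5% and 70.4% of the spread), while TRAF3IP1, an IFT-B subunit, and WDR34 were highest with it. In all, 5 members (14.3%, beside 8.94% of all tested clusters) were lowest and 2 (5.71%, beside 10.6%) highest with number 2 in all 4 treatments.

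**Figure D3:**
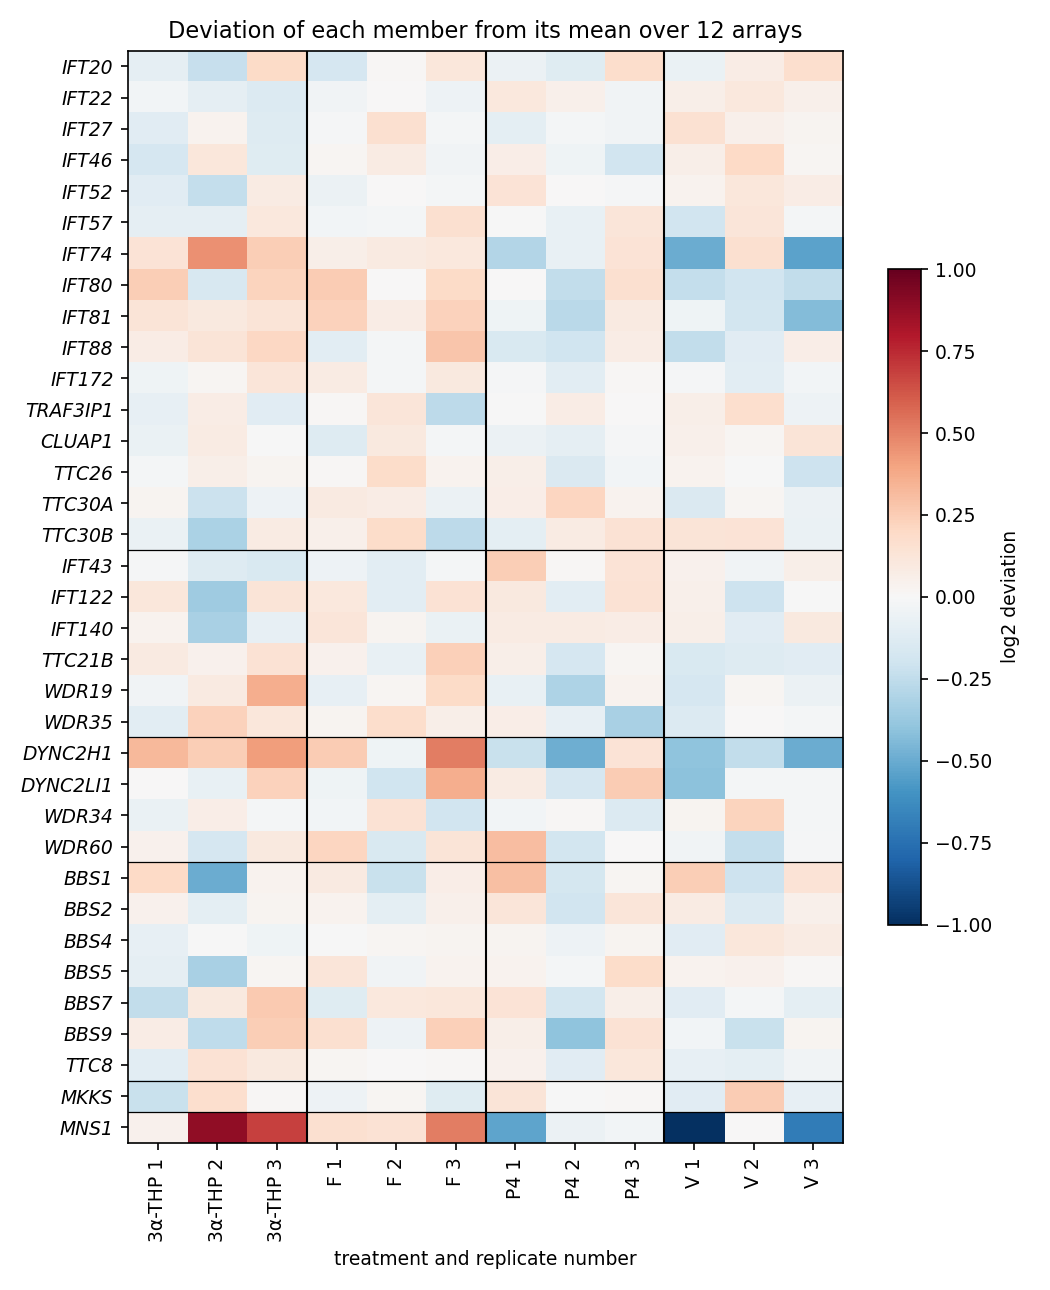
Deviation of each of 35 members (rows) from its mean over 12 arrays (columns, by treatment and replicate number) on the log2 scale, with colors ending at -1 and 1 (MNS1 lies below this in V replicate 1). MNS1, DYNC2H1 and IFT74 are above their mean on the 3α-THP arrays, and BBS1, BBS2 and BBS9 differ more between replicate numbers than between treatments.

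In contrast, the treatment held 72.4% of the spread of the brighter cluster of DYNC2H1 (37.3% in the other), 64.5% of that of MNS1, 65% of that of IFT81, 53.6% of that of IFT74 and 53.2% of that of IFT80. IFT22 (70.7%) and IFT43 (65.3%) had shares as large, with a much smaller spread, at SDs over the arrays of 0.0758 and 0.113 beside 0.362 for DYNC2H1 and 0.574 for MNS1. The median over the members was 32.5% for the treatment and 27.1% for the replicate number, beside 20.7% and 28.7% over all tested clusters. What the numbers stand for beyond separate cultures was not tested.

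**Figure D4:**
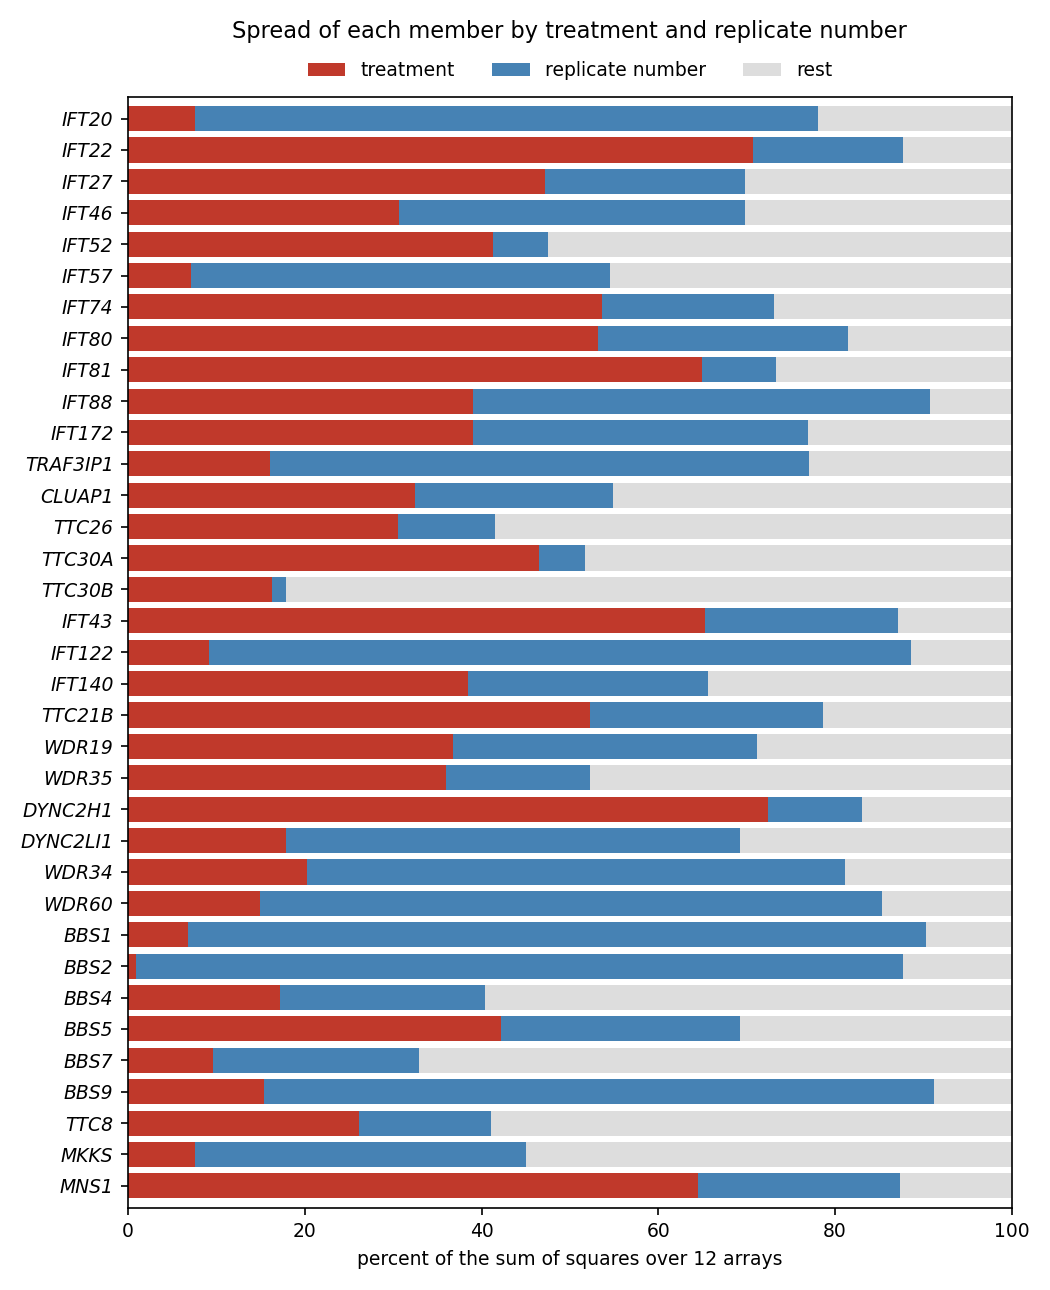
Share of the sum of squares over 12 arrays (horizontal axis, percent) that lay between treatments, between replicate numbers and in the rest, for the brightest cluster of each of 35 members. BBS1, BBS2 and IFT122 are mostly split by replicate number, and DYNC2H1, IFT22 and MNS1 mostly by treatment.

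In 5 lists of other genes around the cilium, CEP290 was the only gene that passed against V. Over all tested clusters 0.627%, 0.382% and 0.0141% rose past the threshold with 3α-THP, F and P4. In the same order 0.0519%, 0.0141% and 0.00943% fell. Counts of 0 in lists of 15 to 23 genes lie near these shares. Of 22 measured partners of the trains and the BBSome, which include the kinesin-2 genes KIF3A, KIF3B and KIFAP3, 0 passed with 3α-THP, F or P4, and their median log2 fold changes were -0.01, -0.03 and -0.01. Of 29 measured genes of the transition zone and basal body, CEP290 alone passed, as higher, with 3α-THP and with F (beside 0.627% and 0.382% of all clusters), and none passed with P4. The median log2 fold changes were 0.07, 0.08 and 0.05 with 3α-THP, F and P4. With 3α-THP 5 of the 29 were higher at an unadjusted p under 0.05 in limma (beside 3.25% of all clusters), namely CEP290, AHI1 (log2 fold change 0.46, SE 0.153), RPGR (0.38, SE 0.167), RPGRIP1L (0.33, SE 0.135) and CSPP1 (0.22, SE 0.0935), all genes of the ciliary base or gate. B9D2 of the same list was lower (-0.24, SE 0.0969), as were 4.09% of all clusters. CEP290, which ties the membrane to the axoneme at the ciliary gate, had 5.12, 5.31 and 5.88 with 3α-THP, 5.53, 4.44 and 6.14 with F, 4.54, 4.65 and 5.36 with P4 and 4.57, 4.65 and 4.59 with V. The 3α-THP arrays were above V, while the F array with number 2 was below it. The log2 fold changes were 0.83 (SE 0.346, limma, adjusted p = 0.624) with 3α-THP and 0.77 (SE 0.346, limma, adjusted p = 0.999) with F. With 3α-THP the call was lost without 3α-THP replicate 3 (0.61) or any 1 V array and in 2 other settings, and with F in 10 of 21 settings, among them without F replicate 3 (0.38), while without F replicate 2 it was 1.23. Of 19 genes of Hedgehog signalling, a pathway that runs through the primary cilium, 0 passed with any steroid, and the median log2 fold change was -0.13 with 3α-THP, with 6 of 19 positive (beside 41.1% of all clusters), -0.07 with F and -0.02 with P4. None of 23 genes of the motile axoneme, where MNS1 also acts, and none of 15 genes of dynein-1 and dynactin, the cytoplasmic counterpart of dynein-2, passed in any comparison. For the motile axoneme the medians were -0.01, 0.00 and 0.03 with 3α-THP, F and P4, and for dynein-1 and dynactin -0.05, -0.03 and -0.05. At an unadjusted p under 0.05 in limma, PTCH1 of the Hedgehog list (log2 fold change -0.20) and CCDC11 of the axoneme list (-0.35) were lower with 3α-THP. With F, RPGRIP1L (0.32) and HSPB11 (0.20) of the partner list were higher besides CEP290. The annotation names HSPB11 as IFT25, an IFT gene that is not among the members here. With P4, DNAI2 (0.20) and CCDC40 (0.21) of the axoneme list were higher. Of the 19 Hedgehog genes, 4 lay below V without overlap with 3α-THP, beside 7.28% of all clusters. In the 3α-THP against P4 comparison 0 genes of the 5 lists passed, beside 0.222% of all clusters that were higher and 0.0283% that were lower. However, CEP290 (log2 fold change 0.59, SE 0.346) did pass with the replicate number as a block (SE 0.246). At an unadjusted p under 0.05 in limma, RPGR (0.40) was higher in that comparison, and B9D2 (-0.22) and CCDC11 (-0.45) were lower.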

How the data were processed

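RNA from 12 cultures, 3 per treatment, was hybridized to Human Gene 1.0 ST arrays. The authors deposited a log2 level for each transcript cluster, and the submitters' processing notes name Affymetrix Expression Console 1.4. The normalization of that table is not given in the sources used here (the methods name quantile normalization in another program). The number of arrays limits the precision. Of 33297 clusters, 21214 had a gene name and were tested without a filter on dim ones. limma 3.58.1 in R 4.3.3 estimated a mean for each treatment and moderated the variances (4.73 prior degrees of freedom). The call needed a fold above 1.5 and p under 0.05 before adjustment, limits that the study applied to an analysis of variance. The fit was tested on simulated data with known shifts. Those data had no effect of the replicate number, so that test does not cover it.

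The 35 members, 5 related lists and the markers were chosen with earlier results of these data known, so no list was tested. Values on every array are given for members past the threshold, the 4 with the smallest p per comparison and DYNC2H1, and beyond this rule for IFT22, TTC21B, BBS1 and CEP290, the first 3 chosen after their values were seen. The labels number the cultures, and the deviations from treatment means correlated at 0.132 to 0.631 in all 18 pairs sharing a number, so the numbers pair the arrays. Alternatives covered the replicate block, quantile normalization, unmoderated analysis of variance, dim clusters, clusters and arrays in the fit, prior, weights, threshold, mean of clusters and left-out arrays.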

Additional observations from a re-analysis of the deposited data

How the results depend on the processing

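With the replicate number as a block no call among the members changed: 2, 2, 0 and 1 members passed with 3α-THP, F and P4 against V and with 3α-THP against P4, as without it. The adjusted p and the SE did depend on the block. With 3α-THP, MNS1 had an adjusted p of 0.0731 (SE 0.171, limma), against 0.381 without the block. The brighter cluster of DYNC2H1 had 0.0731 (SE 0.132, limma), against 0.376. With F both had an adjusted p of 0.216 (limma), against 0.911 for MNS1 and 0.833 for DYNC2H1. At an adjusted p under 0.05, 0 members passed in each of the 4 comparisons (limma), and with array weights MNS1 passed with 3α-THP (adjusted p = 0.0473). With the mean of all clusters of a gene, 1 member passed with F. Without the 4 arrays of number 2, 1 member passed with P4, and the median log2 fold change of the members was 0.0604 with 3α-THP and 0.0928 with P4. With array weights the median with 3α-THP was 0.0526. Under the unmoderated analysis of variance 0 members passed with 3α-THP against P4. Leaving out 1 array gave 2 to 3 members with 3α-THP, 1 to 3 with F, 0 to 1 with P4 and 0 to 2 with 3α-THP against P4, and medians of -0.0328 to 0.0551 with 3α-THP and 0.0380 to 0.0818 with F. The second cluster of DYNC2H1 with P4 had a log2 fold change of -0.12 without V replicate 3 and of -0.20 to 0.24 without 1 P4 array, the lowest without P4 replicate 3, and it passed in none of these. The cause of these changes was not tested.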
